A study of Mus musculus with 2 samples.

Results

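CD8 T cells were chosen by their UMIs in single-cell RNA sequencing of mouse colon lamina propria, as the cells with at least 1 UMI of Cd8a, at least 1 UMI of Cd8b1, at least 2 UMIs of Cd3d, Cd3e and Cd3g together, and no UMI of Cd4 or Csf1r. A UMI is a molecular barcode that counts each captured RNA molecule once. This rule found 1150 CD8 T cells among 20052 kept cells. Of these, 1091 were in the library labelled Runx3_fl, which held 11885 kept cells, and 59 were in the library labelled Runx3, which held 8167. The study compared mice lacking Runx3 in myeloid cells, through a Cre driven by the Lyz2 promoter, with littermates that carried the floxed Runx3 alleles without Cre, and both libraries were therefore floxed at Runx3. Per the study, the mice were male, 8 weeks old, and 6 were pooled for the single-cell sample. Because the titles do not state Cre, the libraries are called by their titles alone and their genotypes are not given, and each group held 1 library. Every difference given here is thus one without a replicate check, and no test was run.

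CD8 T cells are αβ T cells whose co-receptor, a dimer of the Cd8a and Cd8b1 products, binds MHC class I beside the T cell receptor. Naive CD8 T cells circulate through lymph nodes under the homing receptor Ccr7 and keep the transcription factors Tcf7 and Lef1. Effector cells kill infected or transformed cells by releasing perforin and granzymes, serine proteases held in cytotoxic granules, and in the gut wall some persist as resident memory cells that bind epithelial E-cadherin through the integrin subunit Itgae. The transcription factor Runx3 is known for silencing Cd4 and for cytotoxic gene expression in this lineage. In the study the gene was floxed for deletion in myeloid cells, not in T cells.

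The labels describe the sorted cells as CD11b-positive, a surface integrin of myeloid cells encoded by Itgam. Itgam stood at 38.7 CPM, its UMIs per 1000000 UMIs of the population, in the CD8 T cells of the library labelled Runx3_fl, against 157.8 CPM in the Csf1r-positive cells of that library, taken by at least 2 Csf1r UMIs and no Cd3 UMI. In the CD8 T cells of the library labelled Runx3 it stood at 20.6 CPM, against 210.1 CPM in the Csf1r-positive cells. The RNA of the CD11b gene was thus low in the cells described here. The targeted gene, Runx3, stood in the Csf1r-positive cells at 209 CPM (203 to 215) for the library labelled Runx3 and at 163 CPM (158 to 169) for the other. Its RNA was thus present in these myeloid cells of both and was lower in neither by 2-fold. Per the labels, dead cells had been removed by 7-AAD staining after a Percoll gradient. Kept cells had a median of 9573 UMIs in the library labelled Runx3_fl and 5731 UMIs in the other. The CD8 T cells lay above both medians, at 14462 and 9207 UMIs. The 2 libraries shared 37 barcode sequences, of which 4 belonged to CD8 T cells of the library labelled Runx3_fl and 0 to those of the other.

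CD8 T cells made up 9.18% of the kept cells of the library labelled Runx3_fl (exact Clopper-Pearson 95% interval 8.67 to 9.71) and 0.722% of those of the library labelled Runx3 (0.550 to 0.931). These intervals cover counting error only. CD4 T cells, taken by Cd4 and Cd3 UMIs without Cd8a, Cd8b1, Csf1r or Foxp3, numbered 1290 and 116. NK cells, taken by Ncr1 and Klrb1c UMIs without the T cell genes, numbered 1000 and 76. All 3 lymphocyte populations were thus scarce in the library labelled Runx3, while B cells numbered 808 there against 270. A sort and a gradient preceded both libraries, and their part in these shares was not tested.

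The values that chose the members are given once as a description. In the library labelled Runx3_fl, 1473 cells had Cd8a, 1261 of them had Cd8b1, 1253 of these had the Cd3 UMIs, 1205 of these had no Cd4 and 1091 of these had no Csf1r. The members had a median of 4 Cd8a UMIs, 6 Cd8b1 UMIs and 18 Cd3 UMIs. Just inside the thresholds, 166 members had a single Cd8a UMI and a Gzma level of 2845 CPM, 80 had a single Cd8b1 UMI and 2719 CPM of Gzma, and 10 had a Cd3 sum of 2. Just outside, 77 cells with Cd8a and Cd3 but no Cd8b1 had 2843 CPM of Gzma, and 126 with Cd8b1 and Cd3 but no Cd8a had 2873 CPM. These near misses had granzyme levels like the members at the edge. A further 92 cells with Cd8a but neither Cd8b1 nor the Cd3 UMIs were unlike them, with 612 CPM of Gzma and 7332 CPM of Cst3, an antigen-presenting cell gene. The rule also left out 40 cells with Cd4 but no Csf1r UMIs and 122 with Csf1r UMIs, which had 2563 and 2323 CPM of Gzma. In the library labelled Runx3 the members had medians of 2 Cd8a, 2 Cd8b1 and 6 Cd3 UMIs.

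Granzymes set the CD8 T cells of the library labelled Runx3_fl apart. Gzma (granzyme A) stood at 3558 CPM (exact Poisson 95% interval of the summed UMIs 3530 to 3586), against 250.2 CPM in CD4 T cells, 6036 CPM in NK cells and 132.1 CPM in Csf1r-positive cells. Gzmb (granzyme B, which cleaves caspases in the target cell) stood at 2739 CPM (2714 to 2763), against 1051 CPM in CD4 T cells and 1034 CPM in NK cells. Gzmk (granzyme K) stood at 214.9 CPM (208 to 222), against 34.9 CPM in CD4 T cells, 20.7 CPM in NK cells and 0.728 CPM in Csf1r-positive cells. Gzma was thus highest in NK cells, and Gzmb and Gzmk were highest in CD8 T cells among these 4 populations. Gzma and Gzmk lie near each other on chromosome 13 (GRCm38, GENCODE M21), Gzma at 113093825 to 113100981 and Gzmk at 113171608 to 113225908 on the minus strand, where Gzmk overlaps Esm1 on the other strand. Gzmb lies on chromosome 14 at 56258838 to 56262260, also on the minus strand. The RefSeq start of Gzmk used for its promoter lies inside the longer GENCODE gene, and that of Gzmb lies upstream of the GENCODE gene.

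The promoters of these 3 genes are shown because the granzymes lead the cells' profile and because the series concerns a Runx factor. They are the 250 bases before each gene's start in RefSeq on GRCm38.p6, read 5′ to 3′ on the minus strand, with capitals for the Runx core TGTGGT or its reverse complement ACCACA. The Gzma window is chr13:113100982-113101231, the Gzmb window chr14:56262335-56262584 and the Gzmk window chr13:113180966-113181215.
Gzma: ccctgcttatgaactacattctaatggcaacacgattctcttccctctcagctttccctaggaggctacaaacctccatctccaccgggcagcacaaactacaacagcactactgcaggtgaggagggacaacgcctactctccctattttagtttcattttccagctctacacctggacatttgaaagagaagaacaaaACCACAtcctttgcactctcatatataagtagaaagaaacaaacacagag
Gzmb: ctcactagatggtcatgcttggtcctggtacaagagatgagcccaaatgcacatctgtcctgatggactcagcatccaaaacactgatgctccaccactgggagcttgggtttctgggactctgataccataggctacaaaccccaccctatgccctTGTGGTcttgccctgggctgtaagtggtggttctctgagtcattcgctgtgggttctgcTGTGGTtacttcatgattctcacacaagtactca
Gzmk: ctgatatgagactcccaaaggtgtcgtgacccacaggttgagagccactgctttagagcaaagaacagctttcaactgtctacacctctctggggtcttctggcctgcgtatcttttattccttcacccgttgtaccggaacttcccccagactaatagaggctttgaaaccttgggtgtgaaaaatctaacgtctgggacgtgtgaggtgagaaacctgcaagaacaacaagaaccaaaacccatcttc
The Gzma window held 1 Runx core, whose first base lies at -50 from the gene start, and the Gzmb window held 2, at -93 and -34. The Gzmk window held 0 Runx cores and 1 T-box core (GGTGTGA or TCACACC), and no window of the 3 held both motifs. Of 32851 promoter windows of this length, 14.0% held a Runx core and 3.33% a T-box core on either strand. A match of letters is a description, and binding was not measured here.

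**Figure D1:**
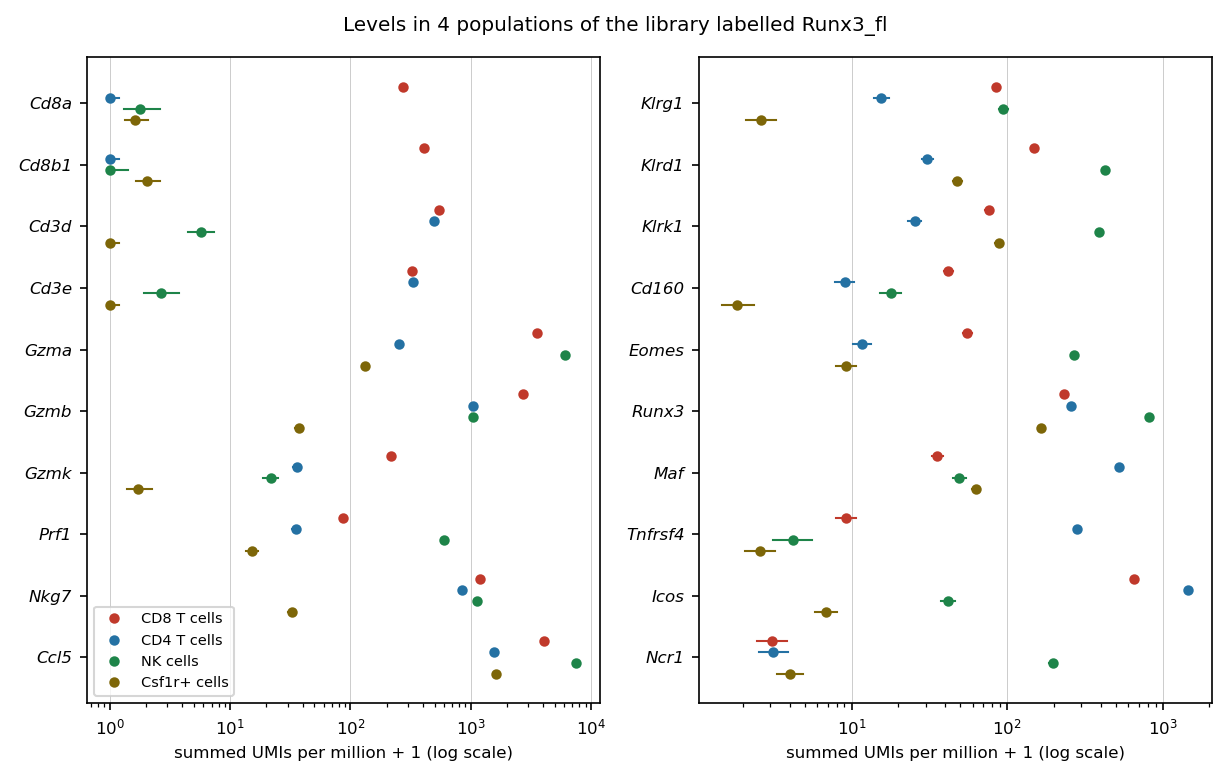
Level of 20 genes in CD8 T cells, CD4 T cells, NK cells and Csf1r-positive cells of the library labelled Runx3_fl, as CPM plus 1 on a log axis with exact Poisson 95% intervals of the summed UMIs. Gzmk is highest in the CD8 T cells at 214.9 CPM, while Gzma reaches 3558 CPM there and 6036 CPM in NK cells.

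Almost every CD8 T cell of the library labelled Runx3_fl carried granzyme RNA. With each cell thinned to 2000 UMIs, 868 of 1091 cells (79.6%, 77.0 to 81.9) had UMIs of both Gzma and Gzmb, and 324 (29.7%) had all of Gzma, Gzmb and Gzmk. Only 32 cells (2.93%) had none of the 3, and 10 cells (0.917%) had Gzmk without the other two. Of the 385 cells with Gzmk, nearly all also had Gzma or Gzmb, as did nearly all of the 1091 cells, so this is no trait of the cells with Gzmk. At full depth, 94.1% had Gzma and Gzmb and 0.917% had none of the 3. As a background, B cells of the same library, taken as cells that should lack them, had thinned shares of 7.43% for Gzma, 3.35% for Gzmb and 0.372% for Gzmk at a median of 21775 UMIs, against 86.0%, 89.7% and 35.3% in the CD8 T cells.

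Against the other 10794 kept cells of the library labelled Runx3_fl, 7848 genes reached a mean of 10 CPM over both populations. Of these, 395 (5.03%) were at least 2-fold higher in CD8 T cells and 989 (12.6%) at least 2-fold lower, on the log2 ratio of CPM plus 1. With ratios centred on their median of 0.18, the split was 248 higher to 1137 lower. This contrast is the one the rule was drawn on, so its values describe the cells and test nothing. Of the granule and cytotoxicity list, 10 of 17 compared genes were at least 2-fold higher and 1 lower, among them Nkg7 (a granule membrane protein, 1194 against 454 CPM), Ctsw (cathepsin W, 167 against 70.9 CPM) and Fasl (the Fas ligand, 127 against 52.6 CPM). Of the T cell receptor and CD3 list, part of which the rule used, 6 of 7 were higher. Of the cell cycle list, 19 of 22 were higher and 0 lower, such as Top2a at 441 against 172 CPM. The genes with the largest positive log2 ratios after Cd8a, Cd8b1 and Gzmk were Gzmb (2.35), Bend4 (2.18), Mctp2 (2.16) and Ncald (2.05).

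The largest negative log2 ratios against the other kept cells belonged to myeloid genes. They were Lyz2 (lysozyme, -5.55), Il1b (-4.98), Aoah (-4.96), Il1a (-4.92) and Cybb (an NADPH oxidase subunit, -4.91). The list of immediate early and stress genes had 8 of 18 genes at least 2-fold lower and 0 higher, and that of interferon response genes 7 of 20 lower and 0 higher. Of the killer cell lectin-like receptor (Klr) list, 4 of 16 were higher and 10 lower. Klrg1, a receptor for cadherins known from effector cells, was among the higher ones at 84.1 against 21.2 CPM.

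Of the 3 sets of cells compared within the library, CD4 T cells had the fewest genes apart from CD8 T cells. Of 7559 genes compared in the library labelled Runx3_fl, 65 (0.86%) were at least 2-fold higher in CD8 T cells and 148 (1.96%) at least 2-fold lower. The median log2 ratio of all compared genes was -0.02. Of the granule and cytotoxicity list, 5 of 16 genes were higher and 0 lower, with a list median of 0.71. They were Gzma (log2 ratio 3.82), Gzmk (2.59), Gzmb (1.38), Prf1 (perforin, 85.4 against 34.1 CPM, 1.30) and Gzmm (16.5 against 7.21 CPM, 1.09). The Klr list had 4 of 9 higher and 0 lower: Klrg1 (2.46), Klrd1 (CD94, 2.28), Klrk1 (NKG2D, 1.58) and Klrc3 (1.14). The cell cycle list had 0 of 22 genes at least 2-fold apart, with a list median of 0.31.

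Single transcription factors and receptors marked the difference from CD4 T cells. Eomes, a T-box factor of cytotoxic lymphocytes, stood at 54.5 CPM in CD8 T cells and 10.7 CPM in CD4 T cells. Tbx21 (T-bet), its relative, stood at 93.6 and 103.5 CPM, and Runx3 itself at 230.4 and 255.1 CPM. Of the 24 compared transcription factors, Eomes was thus the 1 that was at least 2-fold higher. Maf, a factor of IL-10-producing and follicular helper CD4 T cells, stood at 34.6 against 519.8 CPM, and Tox at 73.8 against 362.2 CPM. Both were at least 2-fold lower in CD8 T cells.

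Of the 10 costimulatory receptors compared, 3 were at least 2-fold lower in CD8 T cells and 1 was higher, with a list median of -0.10. Tnfrsf4 (OX40) stood at 8.18 CPM in CD8 T cells and 281.4 CPM in CD4 T cells, Icos at 655 and 1451 CPM, and Tnfrsf18 (GITR) at 40.9 and 112.7 CPM. Cd7, the higher one, stood at 26.2 against 9.40 CPM. Of the inhibitory receptors, Cd160 was higher at 40.9 against 8.01 CPM, while Btla and Lag3 were lower at 15.9 against 59.4 CPM and 17.4 against 37.4 CPM. Pdcd1 (PD-1) stood at 19.3 against 36.3 CPM and Ctla4 at 649 against 1290 CPM, both under a 2-fold difference. Cd40lg, the helper ligand for B cells, was at 0.28 against 89.2 CPM.

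Most chemokine and homing genes were under a 2-fold difference between the T cell populations. Ccl5, a chemokine of effector lymphocytes, stood at 4054 CPM in CD8 T cells and 1556 CPM in CD4 T cells. Cxcr6, a receptor of tissue T cells, stood at 113.5 against 304.4 CPM and was the 1 of 11 chemokine receptors at least 2-fold lower. Itgae stood at 3.20 against 2.62 CPM, below the level at which genes were compared. The integrin that marks resident memory cells at the epithelium was thus low in both. Ifng stood at 259 against 504 CPM and Il10 at 9.03 against 33.2 CPM. Outside the lists, the largest positive ratios belonged to Setbp1 (2.90), Bend4 (2.39), Lrrk1 (2.33) and Ly6c2 (1.97), and the largest negative one, Cd4 apart, to Prickle1 (-5.57).

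Against NK cells of the library labelled Runx3_fl, which share the cytotoxic program, 840 of 7477 genes (11.2%) were at least 2-fold higher in CD8 T cells and 656 (8.77%) at least 2-fold lower, with a median log2 ratio of 0.11. The NK gate used Ncr1, Klrb1c and Cd3, so these genes describe the gate. Of the granule and cytotoxicity list, 4 of 17 genes were higher and 3 lower. Gzmk (log2 ratio 3.32), Gzmm (1.58), Gzmb (1.40) and Tnfsf10 (TRAIL, 1.34) were the higher ones. Prf1 stood at 594 CPM in NK cells, Gzmc at 70.0 CPM and Serpinb9, an inhibitor that protects the killer cell from granzyme B, at 1244 CPM, and these were the lower ones. Nkg7 stood at 1194 CPM in CD8 T cells and 1132 CPM in NK cells.

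Klr receptors separated the CD8 T cells from NK cells. Of 18 compared genes, 14 were at least 2-fold lower in CD8 T cells and 0 higher, with a list median of -4.41. The Ly49 genes Klra4 and Klra8 stood at 11.8 and 11.2 CPM against 520 and 413 CPM. Klrc1 (269 against 262 CPM), Klrc2 (201 against 232 CPM) and Klrg1 (84.1 against 93.4 CPM) were not apart. Klr and Ly49 genes have near-identical copies, so reads may be split between them. Tyrobp and Fcer1g, the signalling adaptors of NK receptors, stood at 54.3 and 41.4 CPM against 1395 and 979 CPM. Of the 200 Klra8 UMIs and 968 Tyrobp UMIs in the CD8 T cells, 174 and 543 came from the 54 cells of sub-cluster 4, described further on.

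T cell genes and division genes stood on the other side. Themis, needed for T cell receptor signalling in thymocytes, had the largest positive log2 ratio after Cd8b1 (7.87), and Bcl11b, a factor of T cell commitment, had 5.29. The cell cycle list had 20 of 22 genes higher in CD8 T cells and 0 lower, with a list median of 2.04. Of the chemokine receptors, 6 of 11 were higher, such as Cxcr3 at 47.0 against 8.36 CPM, and 1 was lower. Eomes and Tbx21 were at least 2-fold lower in CD8 T cells, as NK cells had 270 and 290 CPM. Runx3 was also lower, at 230.4 against 813 CPM.

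Dividing cells made up a large share. With thinned cells, 467 of 1091 CD8 T cells of the library labelled Runx3_fl (42.8%, 39.8 to 45.8) had a UMI of Mki67 or Top2a. At 1 gene, the thinned share with Top2a was 32.3% in CD8 T cells, 29.0% in CD4 T cells, 8.2% in NK cells and 4.48% in Csf1r-positive cells. Only 10 CD8 T cells (0.917%) had Itgae, and 25 (2.29%) had at least 2 of the naive genes Ccr7, Lef1 and Tcf7. At full depth, 67.6% had Mki67 or Top2a, 2.93% had Itgae and 16.4% had at least 2 of the naive genes, most of them with granzymes, as 8 cells had naive genes without. The CD8 T cells of this library were thus mostly granzyme-positive, often with division RNA, and few carried Itgae. Itgae is 1 of 17 listed tissue residency genes, and others were present, such as Rgs1 at 663 CPM and Cxcr6 at 113 CPM. Against other kept cells, 0 of 13 compared genes of that list were at least 2-fold higher, 3 were lower and 10 were neither.

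Clustering the 1091 cells on their own gave 5 sub-clusters, whose leading genes describe them and were not tested. Sub-cluster 1 (403 cells, 36.9%) led with Sntb1, Zeb1 (1794 CPM) and Tcf7 (49.8 CPM), had 7818 CPM of Ccl5 and little Top2a (25.3 CPM). Sub-cluster 2 (376 cells, 34.5%) led with Hist1h2ap, other histone genes and Top2a (839 CPM), at a median of 20316 UMIs against 10057 in sub-cluster 1. Sub-cluster 3 (216 cells, 19.8%) led with Gprin3 and Trps1, and also with Mcm2, a subunit of the replicative helicase, at 113 against 65.4 CPM in the other CD8 T cells. Its leading genes were all under 2-fold, with a largest log2 ratio of 0.85 for Gprin3. Sub-clusters 1 and 2 thus differed in division RNA, and sub-cluster 3 was set apart only weakly. Granzyme levels of sub-clusters 1, 2 and 3 were close: Gzma stood at 3327, 3760 and 3542 CPM, Gzmb at 2301, 3139 and 2855 CPM and Gzmk at 223 CPM in each. At a resolution of 0.2, sub-clusters 1 and 3 were mostly joined, giving 4 groups, and at 0.8 there were 10.

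Sub-clusters 4 and 5 carried genes of other lineages. Sub-cluster 4 (54 cells, 4.95%) led with Mzb1, Klra7, Klra4, Klra8 (132 CPM) and Tyrobp (413 CPM), and had 2954 CPM of Jchain, a plasma cell gene. Sub-cluster 5 (42 cells, 3.85%) led with Cd74 (3609 CPM), H2-Aa (2019 CPM) and Cst3 (3002 CPM), genes of antigen-presenting cells. UMIs of both Xist, which female cells make, and a Y-linked gene were found in 63.0% of sub-cluster 4 and 40.5% of sub-cluster 5, against 4.71%, 6.38% and 4.17% of sub-clusters 1 to 3. Scoring against simulated doublets placed 54 of 54 and 41 of 42 of these cells among the removed ones. Without all cells so removed, 146 of 146 listed or leading genes stayed at least 2-fold apart from the other kept cells, 43 of 44 from CD4 T cells and 131 of 131 from NK cells.

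**Figure D2:**
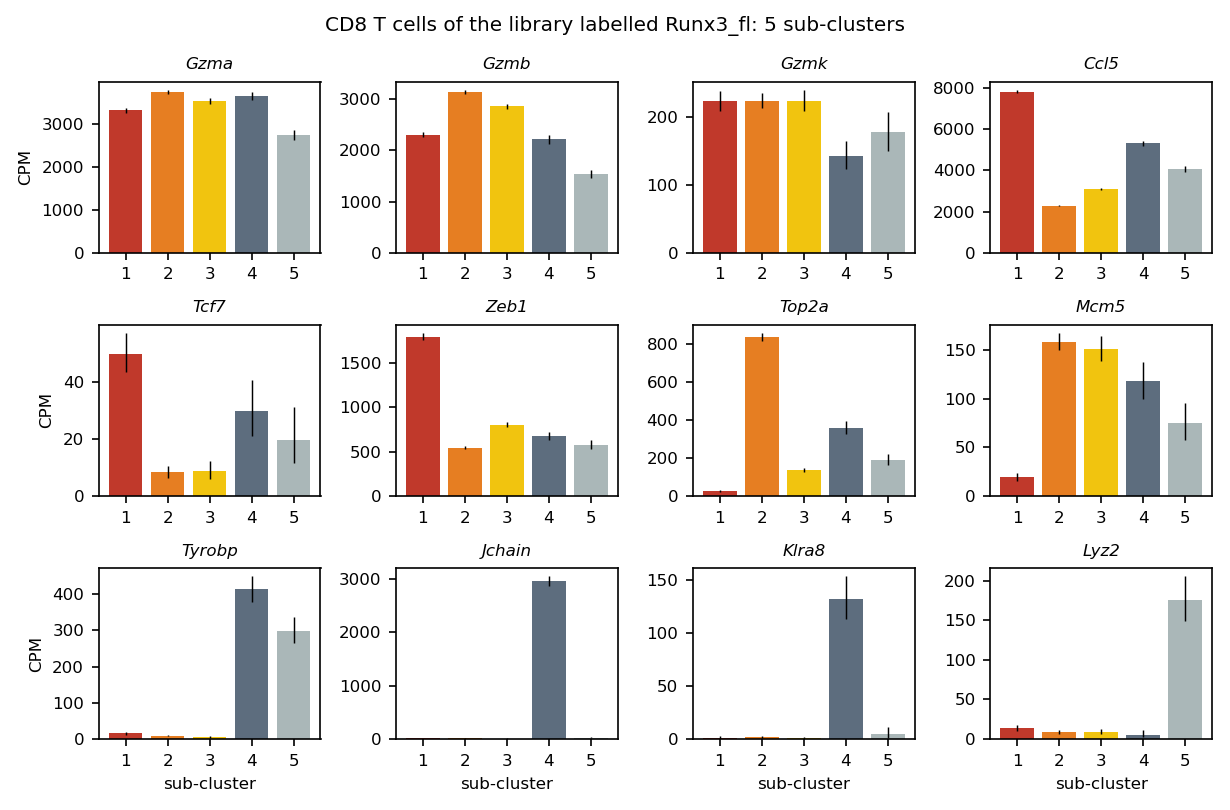
Level in CPM of 12 genes in the 5 sub-clusters of CD8 T cells of the library labelled Runx3_fl, as bars from 0 with exact Poisson 95% intervals. Gzma lies between 2750 and 3760 CPM in all 5, Top2a peaks at 839 CPM in sub-cluster 2, Jchain at 2954 CPM in sub-cluster 4 and Lyz2 at 176 CPM in sub-cluster 5.

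Cells with Xist RNA, which females make, and cells with Y-linked RNA both occurred among the CD8 T cells of the library labelled Runx3_fl, although the study describes male mice. UMIs of Xist without a Y-linked gene were found in 286 cells, the reverse in 668, both in 103 (9.44%) and neither in 34. The library as a whole showed the same, with 2756 Xist-only and 7059 Y-only kept cells, and CD8 T cells made up 10.4% (9.26 to 11.6) of the former and 9.46% (8.79 to 10.2) of the latter. In the library labelled Runx3, 0 CD8 T cells had Xist UMIs and 56 had Y-linked ones.

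Few genes separated the 2 kinds of cell in the library labelled Runx3_fl. Of 7446 genes compared, 3 were at least 2-fold higher in Xist-only CD8 T cells: Xist, its antisense partner Tsix and Slc15a2, a peptide transporter, at 25.2 against 2.63 CPM. In Y-only cells 28 were higher. They included the Y-linked Uty, Ddx3y, Eif2s3y and Kdm5d, plasma cell RNA such as Igkc (157 CPM in Xist-only against 1550 CPM in Y-only cells) and Jchain (9.57 against 235 CPM), and antigen-presenting cell RNA such as Cd74 (87.7 against 239 CPM). The doublet-like sub-clusters 4 and 5, which led in such RNA, were uneven between the kinds. Sub-cluster 4 held 18 Y-only and 2 Xist-only cells, and sub-cluster 5 held 21 and 4. The comparison was not repeated without them. Xcl1, a chemokine of CD8 T and NK cells, was also higher in Y-only cells, at 34.7 against 8.92 CPM. No granzyme was among these genes. How many animals gave each kind of cell is not known, so this is no replicate test.

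**Figure D3:**
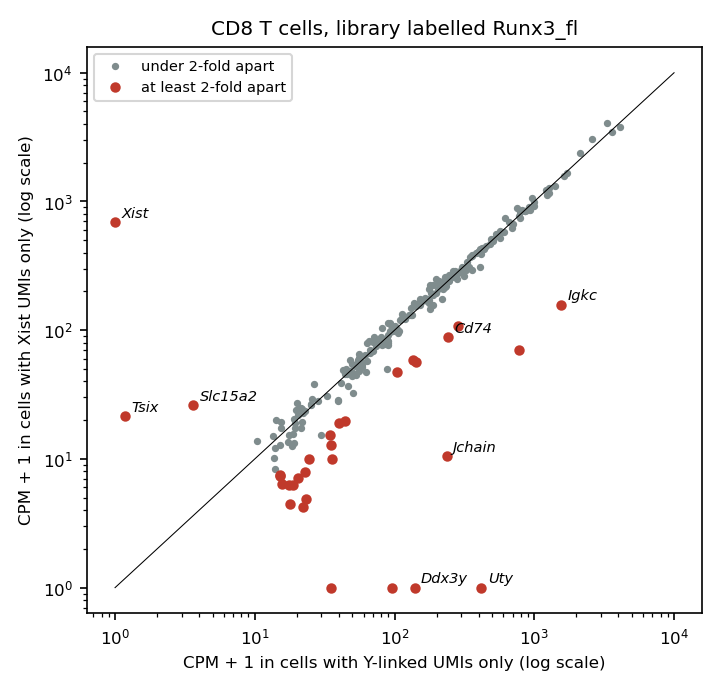
Level of the listed genes, and of all genes at least 2-fold apart, in 286 Xist-only and 668 Y-only CD8 T cells of the library labelled Runx3_fl, as CPM plus 1 on 2 log axes, with genes at least 2-fold apart in red. Most listed genes lie near the diagonal, and Igkc and Jchain lie on the Y-only side.

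The T cell receptor β variable genes differed from those of CD4 T cells. Reads of the library's 3′ chemistry reach these segments only in part, and a Trbv UMI was found in 500 CD8 T cells, 490 CD4 T cells and 2 NK cells of the library labelled Runx3_fl. Trbv16 (chromosome 6, 41151740 to 41152230) was found in 91 of the 500 CD8 T cells (18.2%, 14.9 to 21.9) and in 16 of the 490 CD4 T cells (3.27%, 1.88 to 5.25). Trbv17 (41163062 to 41163556), its neighbour, was found in 48 (9.6%) and 6 (1.22%). Trbv3 was found in 20 (4%, 2.46 to 6.11) and 79 (16.1%, 13.0 to 19.7), Trbv1 in 14 (2.8%) and 55 (11.2%), and Trbv26 in 2 (0.4%) and 21 (4.29%). Of these genes, Trbv16 and Trbv17 thus leaned to CD8 T cells, and Trbv3, Trbv1 and Trbv26 to CD4 T cells. They were not the only ones: Trbv12-1 (8% against 3.67%) and Trbv29 (6.2% against 2.24%) were more frequent in CD8 T cells, and Trbv20 (5% against 11.2%) in CD4 T cells.

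The lean of Trbv16 was present in Xist-only and in Y-only cells. It was found in 33 of 136 Xist-only CD8 T cells with a Trbv UMI (24.3%) and in 41 of 292 Y-only ones (14.0%). Of the 91 cells, 21 also had a Trav UMI (the α chain), with 12 different Trav genes among them. More than 1 α chain was thus present. Trav16n was the most frequent Trav gene, in 33 of 215 CD8 T cells with a Trav UMI (15.3%) and 14 of 315 CD4 T cells (4.44%). Variable genes include near-identical copies, and their counts are uncertain where reads could be split. Only 6 CD8 T cells of the library labelled Runx3 had a Trbv UMI.

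**Figure D4:**
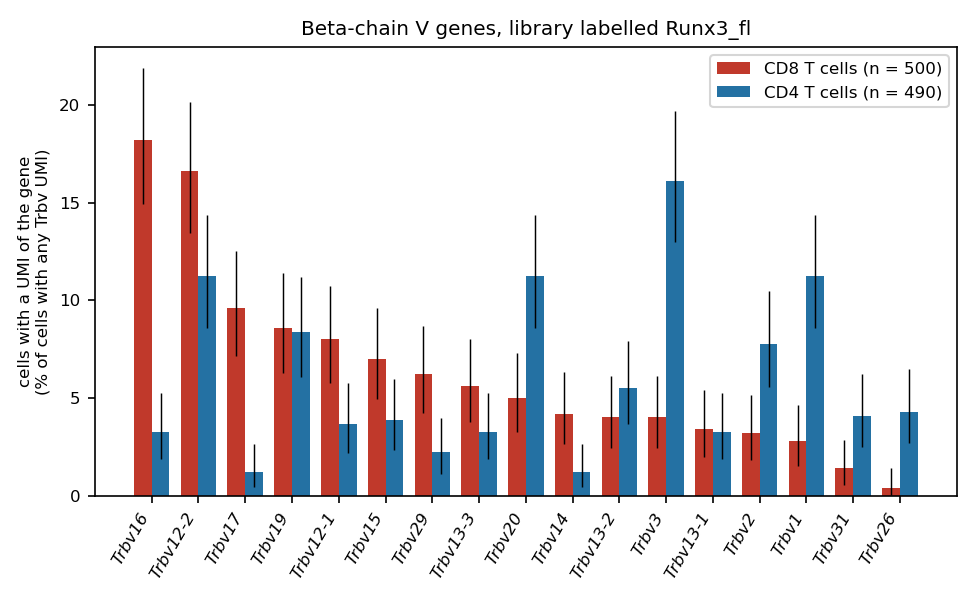
Share in percent of cells with any Trbv UMI that carried each Trbv gene, for 500 CD8 and 490 CD4 T cells of the library labelled Runx3_fl, with exact Clopper-Pearson 95% intervals; genes found in at least 20 cells in total are shown. Trbv16 stands at 18.2% in CD8 and 3.27% in CD4 T cells, and Trbv3 at 4% and 16.1%.

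The 59 CD8 T cells of the library labelled Runx3 differed widely from those of the library labelled Runx3_fl. Of 7717 genes compared, 1003 (13%) were at least 2-fold higher and 1047 (13.6%) at least 2-fold lower in the library labelled Runx3, with a median log2 ratio of 0.05. The values compare 2 libraries, and animals and sort cannot be told apart from the group. Sex and depth also differed between the libraries, and their part was not tested. In Y-only cells of both, 2047 genes were at least 2-fold apart, against 2050 in all cells. With cells thinned to 2000 UMIs there were 2601. Of 141 listed or leading genes, 138 stayed at least 2-fold apart in Y-only cells and 128 when thinned. Other-lineage RNA moved with the same contrast: 40 of the 59 cells (67.8%) had at least 3 UMIs of markers of other lineages, against 123 of 1091 (11.3%). Summed neutrophil markers stood at 205 against 26.7 CPM and were present in 79.7% of the cells, as in 82.8% of CD4 T cells and 84.2% of NK cells of that library. Macrophage and monocyte markers stood at 145 against 37.3 CPM, with Csf1r at 0 by rule, and B cell markers at 107 against 9.87 CPM. Of the 6 NK markers, Ncr1, Klrb1c, Klra8 and Klra4 were at 0 in the 59 cells, while Eomes and Tyrobp were present. Summed, the NK markers stood at 131 against 142 CPM. Cd40lg and Foxp3, 1 of 4 Treg markers, were also at 0, and Foxp3 was at 0 in the 1091 cells too. As 3 UMIs equal 5.16 CPM in the 59 cells, these zeros do not show absence.

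Naive and homing genes were higher in the library labelled Runx3. Of the naive and memory list, 8 of 11 compared genes were at least 2-fold higher and 0 lower, with a list median of 1.77. Tcf7 stood at 322 CPM (277 to 371) against 20.2 CPM (18.2 to 22.4) and Ccr7 at 311 against 22.5 CPM. Dapl1 and Nsg2, known from naive T cells, stood at 56.8 against 0.28 CPM and 65.4 against 1.07 CPM. Il7r, the survival receptor of resting T cells, stood at 87.8 against 25.0 CPM, and Klf2, which drives S1pr1, at 353 against 70.0 CPM. S1pr1 itself stood at 117 against 85.5 CPM. Without the cells holding other-lineage UMIs, the log2 ratios were 2.76 for Tcf7 and 3.56 for Ccr7, and that of Lef1 fell from 1.47 to 0.57.

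Granzymes and division genes were lower there. Of the granule and cytotoxicity list, 9 of 16 compared genes were at least 2-fold lower in the library labelled Runx3 and 1 higher. Gzma stood at 427 CPM (375 to 483) against 3558 CPM, Gzmb at 317 against 2739 CPM, Gzmk at 43.0 against 214.9 CPM and Prf1 at 5.16 against 85.4 CPM. The level of Prf1 in the 59 cells rests on 3 UMIs and is thus at the floor. Klrd1 (124 against 147 CPM) and Eomes (48.2 against 54.5 CPM) were not apart. Without the cells holding other-lineage UMIs, 40 of the 59, Gzma and Gzmb were still lower, at log2 ratios of -1.50 and -1.70. These differences were smaller than those with all cells. The cell cycle list had 21 of 22 genes lower, with a list median of -2.93, and Mki67 stood at 6.88 against 289 CPM. Birc5 had 0 UMIs in the library labelled Runx3 and was at least 32.7-fold lower, against the floor of 3 UMIs over the 59 cells. Against sub-cluster 1 alone, the sub-cluster with little division RNA, 7 of the cell cycle genes had log2 ratios above 0, from 0.08 for Mcm2 to 0.87 for Cdc20.

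Among the 59 cells, naive genes and granzymes were mostly found in different cells. With thinned cells, 21 of 59 (35.6%, 23.6 to 49.1) had at least 2 of Ccr7, Lef1 and Tcf7, and all 21 lacked Gzma, Gzmb and Gzmk. Cells with UMIs of both numbered 0 of 59 (0 to 6.06%), and at this thinned depth a missing UMI does not show that the RNA was absent. Granzyme UMIs were found in 18 cells (30.5%). At full depth the 2 sets overlapped in part, as 27 cells had naive genes without granzymes and 7 had both. In the library labelled Runx3_fl, 17 of the 25 thinned cells with at least 2 naive genes also had a granzyme.

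Of the tissue residency list, 4 of 15 compared genes were at least 2-fold higher in CD8 T cells of the library labelled Runx3 and 4 lower, with a list median of 0.07. The higher ones were Itgae, P2rx7, Ccr9 and Ahr, and the lower ones Cxcr6, Prdm1, Itga4 and Bhlhe40. Itgae had the largest log2 ratio of the list, 4.02. It stood at 67.1 CPM (47.7 to 91.7) in CD8 T cells of the library labelled Runx3, at 0.939 CPM in CD4 T cells of that library and at 3.20 CPM in CD8 T cells of the library labelled Runx3_fl. Thinned cells with Itgae numbered 10 of 59 (16.9%), and 8 of these 10 had a granzyme. At full depth they numbered 19 of 59 (32.2%), of which 13 had a granzyme. B cells of that library, as a background, had Itgae in 0.868% of thinned cells. Without the cells holding other-lineage UMIs its log2 ratio between libraries was 5.17, against 4.02 with them. Ccr9, the receptor that guides T cells to the gut, stood at 72.3 CPM there, against 2.82 CPM in CD4 T cells of that library and 25.3 CPM in CD8 T cells of the other. Cxcr6 was lower, at 27.5 against 113.5 CPM.

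Heat shock and immediate early genes were higher in the library labelled Runx3. Of their list, 13 of 18 compared genes were at least 2-fold higher and 0 lower, with a list median of 1.63. Hspa1a stood at 540 against 32.0 CPM, Fos at 375 against 62.3 CPM and Zfp36, an RNA-binding protein that destabilizes cytokine transcripts, at 599 against 78.2 CPM. CD4 T cells of that library had similar levels, at 689, 278 and 458 CPM. Hspa1a and Hspa1b are near-identical copies. Of the interferon list, 9 of 21 genes were higher and 3 lower, but Ifit3 and Iigp1 changed sign without the cells holding other-lineage UMIs, as did Cd79a and Jchain. The largest positive log2 ratio, that of the B cell factor Ebf1, at 530.0 against 7.29 CPM, came to 1.35 without them.

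Runx3 RNA was present in the CD8 T cells of both libraries. The level was 391 CPM (341 to 445) in the 59 cells and 230.4 CPM (223 to 238) in the 1091 cells, which is under a 2-fold difference, with a log2 ratio of 0.76. In the CD4 T cells it stood at 115.5 CPM in the library labelled Runx3 and at 255.1 CPM in the other. The order of CD8 and CD4 T cells thus differed between libraries, with a log2 ratio of CD8 over CD4 T cells of 1.75 in the library labelled Runx3 and -0.15 in the other. A UMI at the 3′ end of a gene does not show whether a floxed exon upstream was removed. Runx3 lies on chromosome 4 at 135120652 to 135177990 (GRCm38), plus strand, and overlaps Gm16224.

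**Figure D5:**
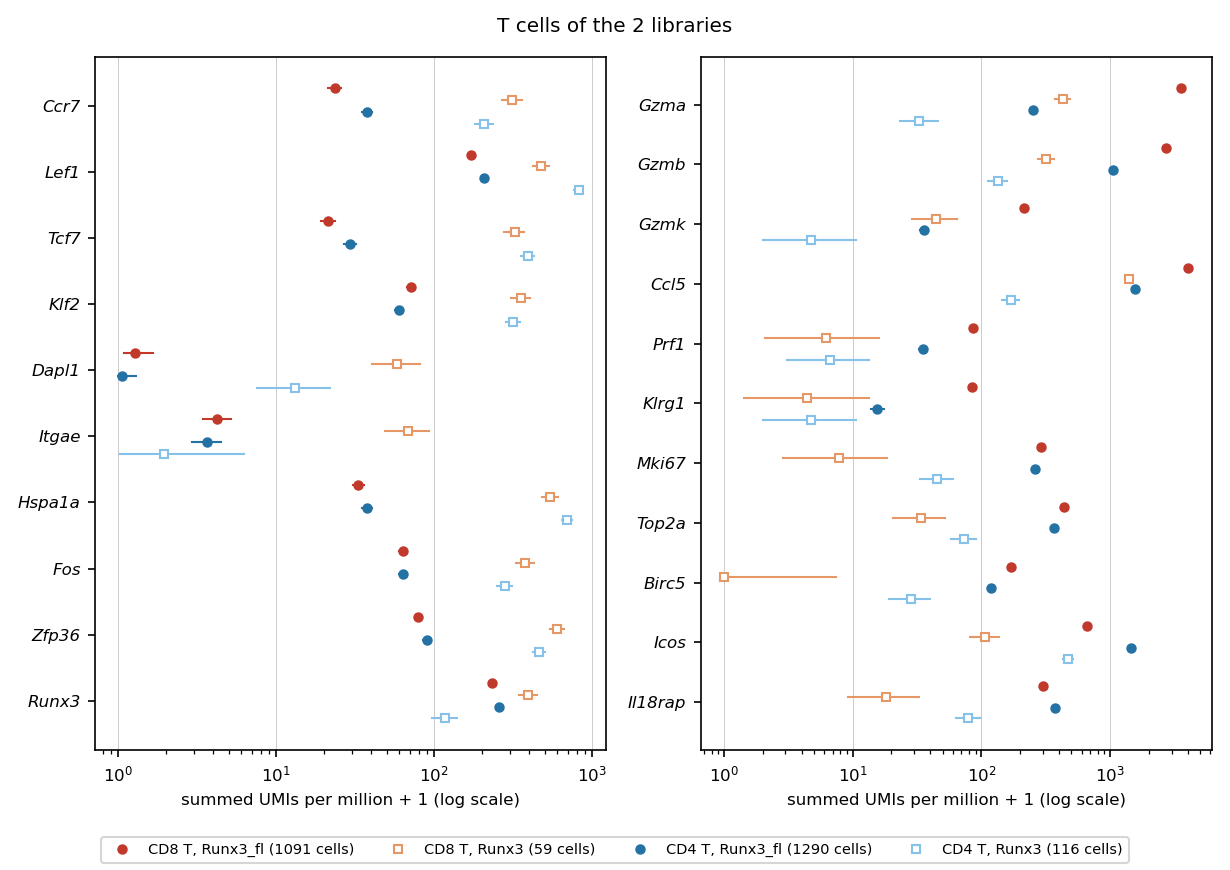
Level of 21 genes in CD8 T cells and CD4 T cells of both libraries, as CPM plus 1 on a log axis, with filled circles for the library labelled Runx3_fl, open squares for the library labelled Runx3 and exact Poisson 95% intervals. In CD8 T cells Tcf7 stands at 20.2 and 322 CPM, Gzma at 3558 and 427 CPM and Itgae at 3.20 and 67.1 CPM.

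Relative to CD4 T cells of their own library, Gzma, Gzmb, Gzmk and Gzmm were at least 2-fold higher in CD8 T cells of both. Lamp1, a membrane protein of lysosomes and granules, had log2 ratios of -0.18 (counting interval -0.75 to 0.38) in the library labelled Runx3 and 0.74 in the other. Other granule genes varied, with Ctsw at 3.79 and 0.77, Nkg7 at 2.49 and 0.50 and Serpinb6b at 0.28 and 0.41, in the same order of libraries. The log2 ratio of Gzma was 3.70 in the library labelled Runx3 and 3.82 in the other, and that of Ccl5 was 3.04 and 1.38. The levels of Gzma and Ccl5 thus differed between libraries in both T cell populations, as Gzma stood at 31.9 CPM and Ccl5 at 168 CPM in the CD4 T cells of the library labelled Runx3. Maf and Tnfrsf4 stayed with the CD4 T cells there, at 370 and 156 CPM against 41.3 and 6.88 CPM in the CD8 T cells.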

How the data were processed

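The authors prepared 10x Genomics 3′ V3 libraries from sorted colon lamina propria cells and deposited filtered UMI counts for each gene in each cell, which per the file headers came from Cell Ranger 7.1.0. The submitters' processing notes name mm10 and Seurat 4, and whether counting used strand is not given in the sources used here. The deposited counts were not normalized. Cells with 200 to 6000 genes and at most 15% mitochondrial UMIs were kept, by the study's limits. This kept 11885 of 12968 and 8167 of 8953 cells, and doublets were treated by the ceiling of 6000 genes alone. In an alternative, the cells nearest to simulated doublets, by 30 neighbours, were removed at 0.8% per 1000 cells.

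Members, gene lists and comparisons were chosen with earlier results of these data known. UMIs were summed per population and given as CPM with exact Poisson intervals, and shares carry exact Clopper-Pearson intervals, both at 95%. Intervals and the floor of 3 UMIs cover counting error only. A gene was compared at a mean of 10 CPM over both populations and counted as apart at an absolute log2 ratio of CPM plus 1 of at least 1. With 1 library per group no test was run. The named genes were the cell type's markers, members of the lists, and per comparison the 10 largest ratios in each direction at a mean of 50 CPM and in 10% of the cells of the higher population, without T cell receptor, immunoglobulin, mitochondrial and ribosomal protein genes. 1 gene of a list is not reported here. Genes outside this rule, such as those of the sub-clusters, of the Xist comparison and Itgam, were chosen after their values were seen. Sub-clusters used 1500 variable genes, 20 principal components, 15 neighbours and the Leiden method at resolution 0.4. Coordinates are those of GENCODE M21 on GRCm38 for the gene ID, which held 32158 of 32285 IDs, and not those of the alignment. The ratio step was tested on simulated data. Scripts ran in Python 3.11.15 with matplotlib 3.10.9, scikit-learn 1.9.0, leidenalg 0.10.2, igraph 0.11.9, pandas 2.3.3, scipy 1.17.1 and numpy 2.4.6.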

Additional observations from a re-analysis of the deposited data

Results flagged for a closer look

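Klrk1, which encodes the activating receptor NKG2D, differed in direction between the libraries. In the library labelled Runx3_fl its log2 ratio of CD8 T over CD4 T cells was 1.58, with 75.2 CPM in CD8 T cells and 24.4 CPM in CD4 T cells. In the library labelled Runx3 the ratio was -1.05, with 17.2 CPM in CD8 T cells and 36.6 CPM in CD4 T cells. The counting interval of this ratio was -2.26 to -0.061, which comes near 0, against 1.47 to 1.78 in the library labelled Runx3_fl. Klrk1 was singled out because the groups lay at least 2-fold apart in opposite directions, with both counting intervals clear of 0. The difference between libraries was not tested, since each group held 1 library, and the lower counts rest on 59 and 116 cells.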

How the results depend on the processing

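No paired analysis was possible because each group held 1 library, and for the same reason no replicate could be left out. The share of CD8 T cells in the library labelled Runx3_fl (9.18%) was 7.35% with at least 2 UMIs of Cd8a and of Cd8b1, 10.5% without the limit on Cd4 and Csf1r, 8.59% without the filter on cells and 1.67% with cells thinned to 2000 UMIs. That in the library labelled Runx3 (0.722%) was 0.269%, 1.05% and 0.159% with the stricter gate, without the limit and thinned. The counts of genes at least 2-fold apart against other kept cells, CD4 T cells, NK cells and between libraries were 1384, 213, 1496 and 2050. With a mean of at least 1 CPM they were 2547, 426, 2538 and 4131, with any UMI 2724, 457, 2639 and 5138, and with 10 CPM as pseudocount the last 3 were 137, 961 and 1358. Of all genes apart from other kept cells, 28.5% were higher, and 17.9% with ratios centred on their median. Between libraries 48.9% were higher, and 63.7% against sub-cluster 1 alone. Of 5675 gene values under alternatives, 5478 stayed at least 2-fold apart, 177 fell under 2-fold and 20 changed sign. The settings of at least 1 CPM and of any UMI change only which genes are compared. No gene value could move under these 2 settings, and their values are counted among the 5478. Against other kept cells, Cd79b came to 0.0677 when thinned. Against CD4 T cells, S100a8 came to 0.92 in Y-only cells and 0.56 without cells holding Xist and Y-linked UMIs. Between libraries, Jchain came to 2.04 without simulated-doublet neighbours, 1.54 without cells holding other-lineage UMIs and 1.67 against sub-cluster 1. Without cells holding other-lineage UMIs, Cd79a came to -0.99, Ifit3 to -1.54 and Iigp1 to -1.91. Thinned, Cdc20 came to 0.80 and Tnfsf10 to -0.000624, and Xist came to 0 in Y-only cells. Against sub-cluster 1, Cdc20 came to 0.87, Cdk1 to 0.31, Hist1h2ap to 0.64, Mcm2 to 0.0757, Rrm1 to 0.82, Stmn1 to 0.28, Top2a to 0.36 and Tubb5 to 0.83. The cause was not tested. Depth limits the 59 cells of the library labelled Runx3, where 3 UMIs equal 5.16 CPM, against 0.168 CPM in the other. The alternatives on Xist, Y-linked genes and sub-cluster 1 were chosen after seeing the data.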
